A study of Mus musculus with 22 samples.

Results

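The conjugating enzymes of mouse liver were taken as the 60 genes, of 24475 in the deposited table, whose symbols place them among the glutathione S-transferases (Gst of the alpha, kappa, mu, omega, pi and theta classes, and the microsomal Mgst), the UDP-glucuronosyltransferases (Ugt1a, Ugt2a, Ugt2b and Ugt3a) or the sulfotransferases (Sult1 to Sult5). The rule used their names and not their values, but was set with earlier results of these data known. PolyA RNA of liver was sequenced in 22 libraries from wild-type (WT) mice and from mice lacking Gcg (Gcg-/-), the gene for glucagon. Without infusion there were 3 WT and 3 Gcg-/- libraries, with glucagon at 30 µg/d there were 4 and 4, and with glucagon at 150 µg/d there were 4 and 4. The labels give no infused vehicle control, so an infused group differs from its uninfused group by the infusion itself as well as by glucagon. The sources used here do not state age, sex, strain or the length of infusion. The labels do not say that libraries of a group are separate mice, and p-values measure the spread between libraries, which may be technical.

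Conjugation is the step that makes a lipid-soluble drug, hormone or breakdown product soluble enough to leave the hepatocyte. Glutathione S-transferases join reactive electrophiles to glutathione, UDP-glucuronosyltransferases in the endoplasmic reticulum add a sugar, usually glucuronic acid, to substrates such as bilirubin, steroids and bile acids, and sulfotransferases move a sulfate from the donor PAPS to phenols and hydroxysteroids. Many of these genes are known targets of the xenobiotic receptors CAR, PXR and AHR and of the oxidant sensor NRF2. Several differ between male and female mouse liver, with Gstp1 higher in males, and Sult3a1 and several, but not all, Sult2a enzymes higher in females.

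Levels are in RPKM (reads scaled by transcript length and by library size), which is per length, so genes can be set beside each other. Depth was estimated at about 11100000 to 17700000 reads per library, at which 1 read on a transcript of 1 kb is worth 0.056 to 0.09 RPKM. Gcg was listed at 0 in all 22 libraries, so liver RNA does not check the genotype labels, while its receptor Gcgr lay between 68.5 and 93.9 RPKM. All 8 hepatocyte markers checked against the liver label were expressed. Differences were tested with limma on log2(RPKM + 1) for the 11590 genes with a mean of at least 0.5 RPKM, and a gene was called when its p-value, adjusted over all of them by Benjamini-Hochberg, was under 0.05. Differences are given on that scale with the standard error (SE), and a difference on it understates the change of low genes.

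Of the 60 enzymes, 46 reached the mean of 0.5 RPKM and were tested. The other 14 were Gsto2, Gstt4, Mgst2, Ugt1a2, Ugt1a7c, Ugt2a1, Ugt2a2, Sult1c1, Sult1e1, Sult2a3, Sult2a6, Sult2b1, Sult3a1 and Sult4a1. By mean level, 14 enzymes were at 100 RPKM or more, 21 between 10 and 100, 11 between 0.5 and 10, and 14 under 0.5. Together the 60 genes made up 1.29 to 1.85% of all RPKM of a library. That share was lowest in library 13 (Gcg-/-, 30 µg/d), followed by library 19 (Gcg-/-, 150 µg/d) and library 4 (uninfused Gcg-/-).

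Among the glutathione S-transferases, 1 gene carried most of the RNA of most classes. Mgst1, a membrane-bound transferase and peroxidase, was the highest of all 60 genes, with a lowest, median and highest library of 1807, 2812 and 3196 RPKM. Gstp1 of the pi class followed with 267, 1789 and 2606 RPKM, and was far less even across libraries. Gsta3 of the alpha class had 746, 960 and 1374 RPKM and made up 93.5% of the alpha-class RNA. Gstm1 led the mu class with 430, 747 and 1821 RPKM, or 81.4% of the class. The other leading genes were lower, at 77.2, 131 and 204 RPKM for Gstt1 of the theta class, 52.6, 71.3 and 120 for Gstk1, which is found in mitochondria and peroxisomes, and 41.8, 57.3 and 96.4 for Gsto1, a thiol transferase.

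The UDP-glucuronosyltransferases were spread over more genes. Ugt2b5 had a lowest, median and highest library of 227, 511 and 708 RPKM and was only 38.3% of the Ugt2b RNA, with Ugt2b36, Ugt2b1 and Ugt2b34 at means of 298, 244 and 166 RPKM. Ugt1a1, the enzyme that conjugates bilirubin, had 183, 294 and 468 RPKM, or 61.6% of the Ugt1a RNA. Ugt2a3 had 105, 140 and 167 RPKM. Ugt3a2, of a family known to use sugars other than glucuronic acid, had 139, 173 and 217 RPKM.

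Sulfotransferase RNA came mostly from Sult2a8, with a lowest, median and highest library of 185, 436 and 573 RPKM, and from Sult1a1, which sulfates phenols, with 64.8, 150 and 235 RPKM. Sult1d1 and Sult5a1 had means of 41.6 and 16.2 RPKM. The estrogen sulfotransferase Sult1e1 reached 2.92 RPKM in library 13 and no more than 0.739 in any other. Sult1c1 and Sult2a3 were listed at 0 in all 22 libraries.

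**Figure D1:**
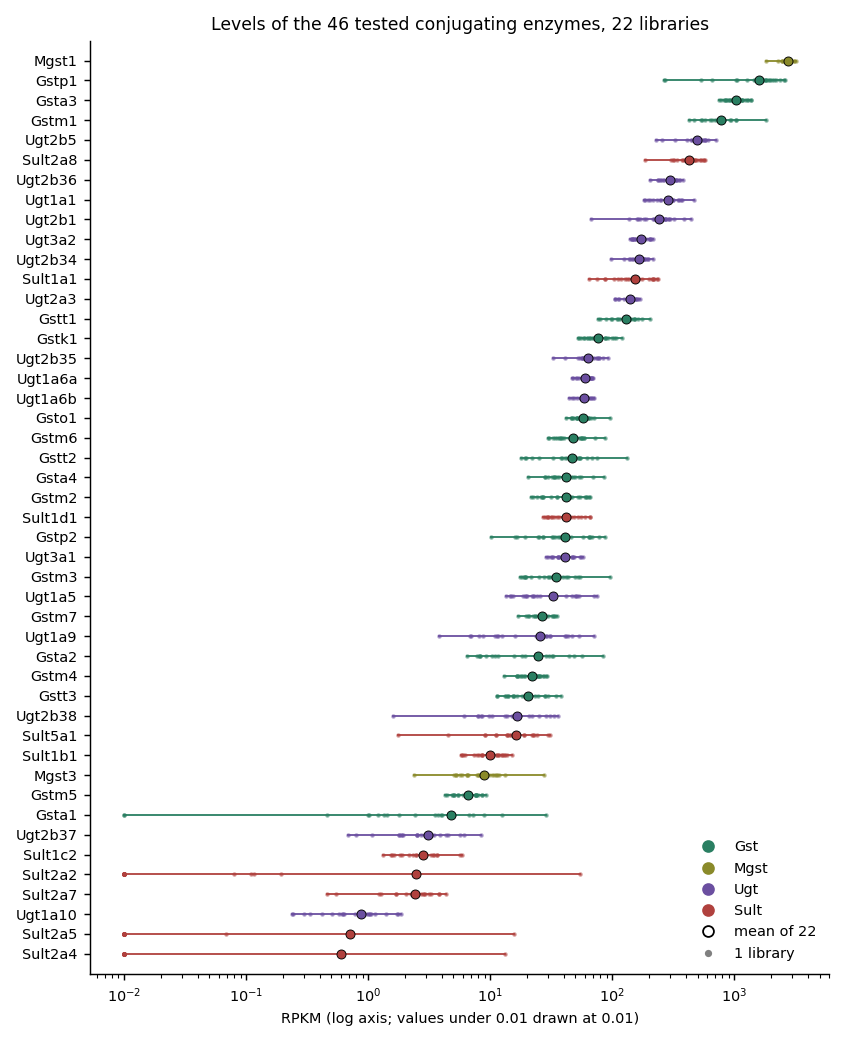
Level of each of the 46 tested enzymes in RPKM on a log axis, 1 small dot per library (values under 0.01 drawn at 0.01), with the range as a line and the mean of 22 libraries as a large dot; colours mark the 4 families. Mgst1, Gstp1 and Gsta3 had the highest means, and Sult2a2, Sult2a4 and Sult2a5 had their mean from 1 library.

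The spread between libraries of a group differed widely among enzymes. For the 35 genes with a mean of at least 10 RPKM, the coefficient of variation within groups had a median of 21.2%. Ugt3a2 (8.65%), Ugt1a6b (9.57%) and Ugt2b36 (9.67%) were the most even, and Gsta2 (83%), Ugt2b38 (64.7%) and Gstp1 (53.8%) the least. The means of the 6 groups lay within 1.5-fold of each other for 13 of the 35 genes and were 2-fold or more apart for 10. Without libraries 4 and 13 these counts were 13 and 12. The widest span of group means was that of Ugt1a9, from 7.41 RPKM in uninfused Gcg-/- to 41.0 in Gcg-/- at 150 µg/d. Without those libraries the span of Gsta2 was as wide, from 7.49 RPKM in Gcg-/- at 30 µg/d to 35.1 in uninfused WT (4.69-fold, against 4.66-fold for Ugt1a9).

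Libraries 4 and 13 stood apart from the other 20. Library 4 was the highest or the lowest of all 22 in 26 of the 46 tested enzymes (56.5%), against 23.6% of all tested genes. For 3 of these, Sult2a2, Sult2a4 and Sult2a5, that was fixed by the filter, and among the 43 enzymes that pass it without libraries 4 and 13 the count was 23 (53.5%), against 23.3% of all such genes. Library 13 was at neither end for any of the 46. Library 4 was highest for 15 of them, among them Gsta1, Gsta2, Gstm1, Gstm3 and Ugt1a1, and lowest for 11, among them Gstp1, Sult5a1, Sult2a8, Ugt2b1 and Ugt1a9. Gstp1 was at 267 RPKM in library 4 and 272 in library 13, and between 533 and 2606 in the others. Sult5a1 was at 1.76 and 4.54 RPKM in those libraries, and at 8.999 or more elsewhere. Gsta2 was at 83.5 and 56.4 RPKM in them, and at no more than 49.0 elsewhere.

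Of the enzymes known as female-predominant, Sult3a1 was raised in both of these libraries, and 4 Sult2a enzymes in library 4 alone. Sult3a1 was at 5.37 RPKM in library 4 and 2.30 in library 13, and at no more than 0.259 elsewhere. Sult2a2, Sult2a4, Sult2a5 and Sult2a6 were at 54.2, 13.2, 15.7 and 2.68 RPKM in library 4, and at no more than 0.193 in any other, library 13 included. The other Sult2a enzymes did not follow them, with Sult2a7 at 2.38 RPKM in library 4 against a mean of 2.42 over all libraries, and Sult2a8 at 185 in library 4, the lowest of all 22, and 338 in library 13. Sult2a2, Sult2a4 and Sult2a5 therefore passed the filter on low values only through library 4, and they count among the 46 and among the 15. In a list of 15 female-biased liver genes, 13 of which reached the mean for testing, the mean log2(RPKM + 1) was 4.02 in library 4 and 2.96 in library 13, and 0.88 to 1.95 in the others. In a list of 16 male-biased liver genes it was 5.12 and 6.45 in libraries 4 and 13, and 7.51 to 9.09 in the others. Both lists were chosen with earlier results of these data known. Called differences were computed again without library 4 and without both, and lost calls are given beside the results. For genes of the lists, the lost calls given are those without library 4.

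**Figure D2:**
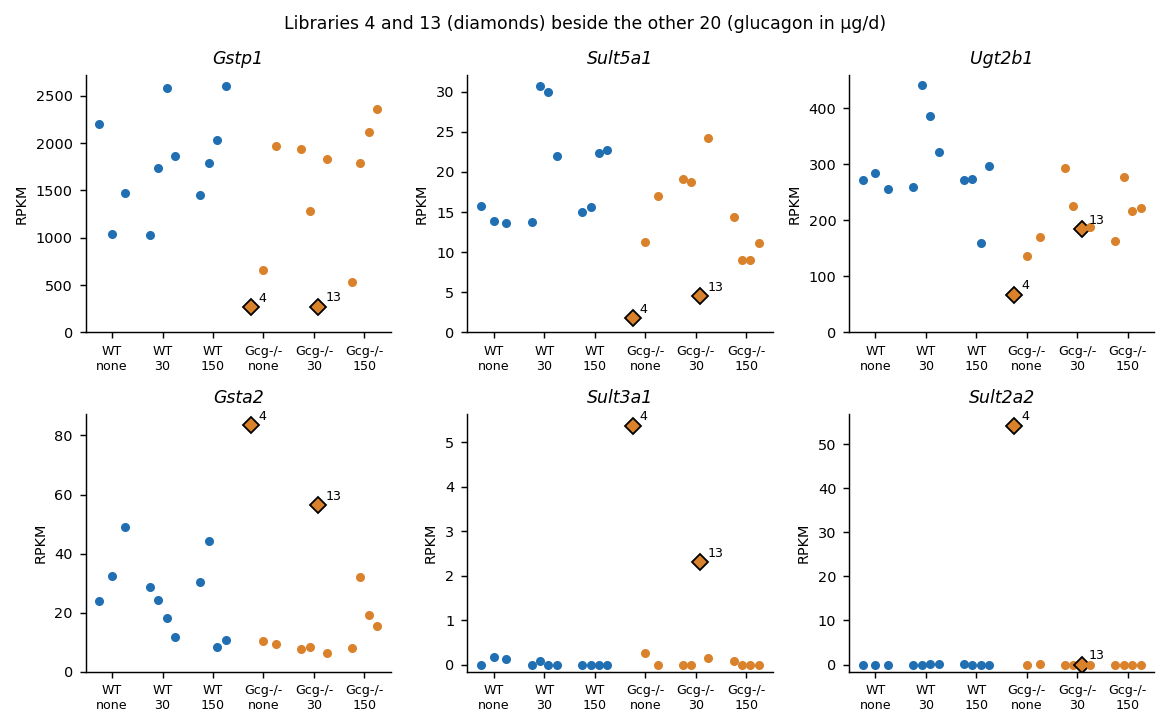
RPKM of 6 enzymes in each library by group, with libraries 4 and 13 as diamonds and the other 20 as dots. Gstp1 and Sult5a1 were lowest and Sult3a1 highest in both diamonds, while Sult2a2 was at 54.2 RPKM in library 4 and at no more than 0.193 in the others.

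Most of the genes lie in tandem clusters, which the choice by name did not use (RefSeq on GRCm38.p6). All 7 Gstm genes lie within chr3:107895854-108045179, the 10 Ugt2a and Ugt2b genes within chr5:86889770-87490871, and the 8 Ugt1a genes within chr1:88055411-88220002. The Ugt1a genes are alternative starts of one locus. Each has a first exon and promoter of its own, although in the GENCODE annotation a further Ugt1a7c transcript starts with an exon of Ugt1a6b. In that annotation exons 2 to 4 of Ugt1a1 and Ugt1a9 have the same coordinates in all 9 annotated Ugt1a genes, and exon 5 has the same start. As a result 58.2% of the 50-base windows of the Ugt1a1 transcript and 62% of those of Ugt1a9 also occur in another gene, and reads from the shared exons could be split between them by the counting. Sharing was 62.3% for Gstp1, with Gstp2, and 89.7% for Gsta1. It was 3.8% for Gstm2, 8.6% for Ugt3a2, 1.5% for Ugt2b34 and 0 for Ugt2b1. Among the Sult2a enzymes raised in library 4, sharing was 62.1% for Sult2a2, 34.5% for Sult2a5, 25.5% for Sult2a4 and 7.3% for Sult2a6. Reads from any of these genes may therefore enter the values of the others.

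The 250 bases before the RefSeq start are shown for the enzymes with the largest called differences, 2 of which (Ugt1a9 and Ugt1a1) share exons and differ in their promoter. They are Gstm2 (chr3:107986421-107986670, minus strand), Ugt2b1 (chr5:86926504-86926753, minus strand), Ugt1a9 (chr1:88070529-88070778, plus strand) and Ugt1a1 (chr1:88211709-88211958, plus strand), written 5′ to 3′ from RefSeq on GRCm38.p6 with motif matches in capitals.
Gstm2: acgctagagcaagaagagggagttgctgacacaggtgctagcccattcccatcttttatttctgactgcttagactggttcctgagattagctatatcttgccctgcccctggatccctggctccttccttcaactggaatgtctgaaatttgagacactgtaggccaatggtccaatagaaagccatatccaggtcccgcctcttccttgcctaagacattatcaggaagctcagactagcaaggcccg
Ugt2b1: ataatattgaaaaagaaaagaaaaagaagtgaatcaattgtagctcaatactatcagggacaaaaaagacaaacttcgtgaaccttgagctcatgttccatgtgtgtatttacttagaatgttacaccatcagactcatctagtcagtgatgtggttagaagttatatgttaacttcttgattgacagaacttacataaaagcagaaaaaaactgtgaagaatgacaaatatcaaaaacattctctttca
Ugt1a9: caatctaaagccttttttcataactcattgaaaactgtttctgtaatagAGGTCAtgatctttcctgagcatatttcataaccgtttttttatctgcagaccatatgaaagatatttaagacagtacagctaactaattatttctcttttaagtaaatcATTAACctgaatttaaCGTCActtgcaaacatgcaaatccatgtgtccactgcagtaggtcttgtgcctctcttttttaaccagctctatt
Ugt1a1: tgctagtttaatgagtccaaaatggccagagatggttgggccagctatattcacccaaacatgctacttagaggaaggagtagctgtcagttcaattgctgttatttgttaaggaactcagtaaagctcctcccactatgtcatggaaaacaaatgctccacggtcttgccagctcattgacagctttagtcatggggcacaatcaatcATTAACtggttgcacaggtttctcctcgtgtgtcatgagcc
Both strands were searched for 7 motifs: a TATA box (TATAAA), the antioxidant response element core (TGACNNNGC), the cAMP response element core (TGACG), the xenobiotic response element core (GCGTG), a forkhead site (GTAAACA), a nuclear receptor half-site (AGGTCA) and an HNF1 half-site (GTTAAT). The Ugt1a9 window holds the nuclear receptor half-site starting 201 bases before the start, the HNF1 half-site on the minus strand at 91 and the cAMP core on the minus strand at 75, and these matches do not overlap. The Ugt1a1 window holds only the HNF1 half-site, on the minus strand at 41, and the Gstm2 and Ugt2b1 windows hold none of the 7. Over the 11791 promoters of tested genes, windows of the same length held the motifs, in the order given, in 7.1%, 11.7%, 26.2%, 43.7%, 2.4%, 11.4% and 4.4%. Of the 64 promoters listed for 53 of the 60 enzymes, 12, 4, 4, 10, 4, 11 and 13 held them. A match is a description of the letters and not a measured site.

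The first comparison asked how uninfused Gcg-/- mice differed from uninfused WT mice. Of 46 enzymes tested, 2 were called, both lower in Gcg-/- and none higher, where 1.54% of all tested genes were called, 0.794% higher and 0.751% lower. At an unadjusted p under 0.05 there were 13 enzymes, where 17.5% of all tested genes passed. On the log2 scale 28 enzymes were lower and 18 higher, where 47.9% of all tested genes were lower. The median difference was -0.21 against 0.01 over all tested genes. Under 3 other scalings of the libraries the number lower was 26 to 29. All these counts include Sult2a2, Sult2a4 and Sult2a5, which passed the filter only through library 4 and whose differences here rest on it.

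Gstm2, a mu-class transferase, was at 46.5, 66.1 and 64.8 RPKM in the 3 uninfused WT libraries and at 22.2, 26.5 and 26.0 in the 3 uninfused Gcg-/- libraries. The groups did not overlap, and library 4 was close to the other Gcg-/- libraries. The mean was 59.1 ± 10.9 in WT and 24.9 ± 2.31 in Gcg-/- (SD, n = 3 each), a difference of -1.20 ± 0.22 (SE) with a limma adjusted p of 0.0171. Ugt2b1, which belongs to the steroid- and bile acid-conjugating Ugt2b enzymes, was at 272, 285 and 257 RPKM in WT and at 67.6, 136 and 170 in Gcg-/-. Again the groups did not overlap, with library 4 the lowest of all 22. The difference was -1.21 ± 0.29, with a limma adjusted p of 0.0424.

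Both calls were close to the threshold. Without library 4 the difference of Gstm2 was -1.13 (limma adjusted p = 0.0978) and that of Ugt2b1 was -0.83 (limma adjusted p = 0.213), so neither was called. Gstm2 was also not called without library 2 (0.0659) or 3 (0.111), and Ugt2b1 was called only when library 6 was the one left out. Neither difference changed direction.

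Other enzymes did not overlap between the uninfused groups without passing the test. The share of all tested genes without overlap was not computed in this or any other comparison. A lack of overlap therefore only describes the values and does not set these enzymes apart from other genes. Ugt1a6b was higher in every Gcg-/- library, at 67.0 to 71.1 RPKM against 58.3 to 65.1 in WT. Gstk1, Gstm6, Gstm7, Ugt1a9, Ugt2b35, Ugt2b36 and Ugt2b5 were lower in every Gcg-/- library. Gstk1 was at 87.2, 88.0 and 89.2 RPKM in WT and at 53.6, 55.2 and 52.6 in Gcg-/-, and its difference of -0.70 ± 0.18 had a limma adjusted p of 0.0607. The values of Gstk1 within each group lay closer together than those of Gstm2. Gstm6 and Gstm7, which lie in the mu cluster with Gstm2, differed by -0.86 ± 0.23 and -0.59 ± 0.17 (limma adjusted p = 0.0623 and 0.0872). Gstm3 and Gstm1, the genes on either side of Gstm2, overlapped between the groups. Ugt1a9 was at 29.2, 28.3 and 16.01 RPKM in WT and at 3.80, 6.87 and 11.6 in Gcg-/- (-1.66 ± 0.55, limma adjusted p = 0.124). Of the 3 most abundant genes, none passed: Mgst1 differed by -0.21 ± 0.16, Gstp1 by -1.10 ± 0.71 and Gsta3 by -0.25 ± 0.23. Gstp1 was at 2204, 1044 and 1470 RPKM in WT and at 267, 654 and 1967 in Gcg-/-, with library 6 inside the WT range (limma adjusted p = 0.444). Gstm1 was at 823, 915 and 1035 RPKM in WT and at 1821, 943 and 721 in Gcg-/-, so that library 4 was the highest and library 6 below all 3 WT libraries. No sulfotransferase was called, and the positive differences of Sult2a2, Sult2a4 and Sult2a5 rested on library 4.

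**Figure D3:**
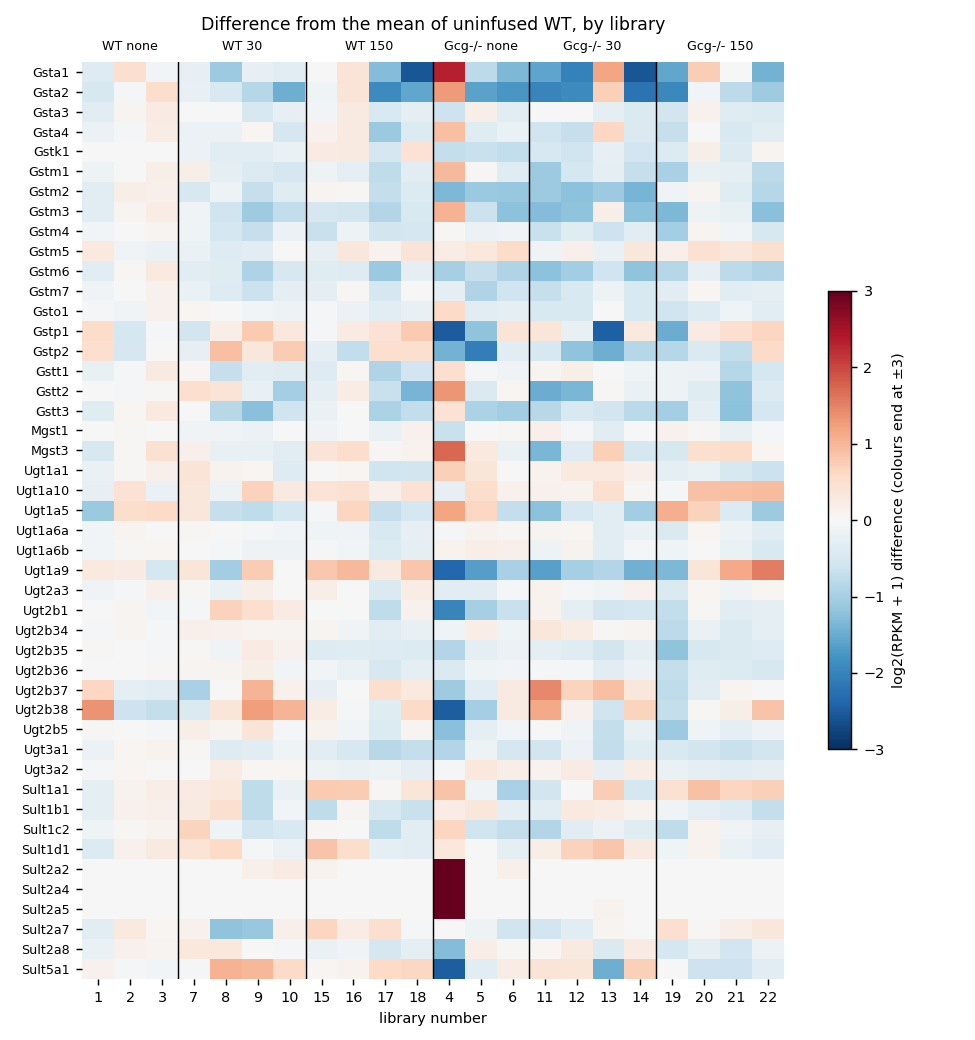
Difference of log2(RPKM + 1) from the mean of the 3 uninfused WT libraries, for the 46 tested enzymes (rows) in each of the 22 libraries (columns, by group); red is higher and blue lower, and colours end at ±3. Gstm2 was lower in all 7 Gcg-/- libraries without infusion or at 30 µg/d, and library 4 stands out across many rows.

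The second comparison asked what glucagon at 150 µg/d did in mice without glucagon of their own. Of 46 enzymes, 4 were called, 2 higher (Gstm2 and Ugt1a9) and 2 lower (Ugt1a1 and Ugt3a2), where 2.72% of all tested genes were called, 1.31% higher and 1.41% lower. At an unadjusted p under 0.05 there were 17 enzymes, where 18.4% of all tested genes passed. The median difference was -0.17 against -0.04 over all tested genes. Of the enzymes, 29 were lower (24 to 28 under 3 other scalings), where 58.4% of all tested genes were lower. Sult2a2, Sult2a4 and Sult2a5 are again among those counted, with differences that rest on library 4, through which they passed the filter. This comparison shares the uninfused Gcg-/- libraries with the first one, so opposite signs in the pair are not independent.

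Gstm2 was at 54.3, 61.4, 45.2 and 31.8 RPKM in the 4 libraries at 150 µg/d (mean 48.2 ± 12.8, SD, n = 4). Every one was above the highest uninfused Gcg-/- library (26.5 RPKM), and the WT libraries at the same dose lay between 35.0 and 61.8. Gstm2 rose by 0.89 ± 0.21 (limma adjusted p = 0.0297). Between genotypes at 150 µg/d its difference was -0.06 ± 0.19.

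Ugt1a9 was at 8.72, 31.0, 53.7 and 70.7 RPKM at 150 µg/d and at 3.80, 6.87 and 11.6 without infusion. Library 19 lay inside the uninfused range, and the other infused libraries were all above it. Ugt1a9 rose by 2.09 ± 0.52 (limma adjusted p = 0.0366), the largest called difference of any enzyme. In WT its level at 150 µg/d was 28.5 to 47.3 RPKM, against 16.01 to 29.2 without infusion, and that difference of 0.72 ± 0.52 did not pass (limma adjusted p = 0.614).

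Ugt1a1 was at 232, 249.5, 205 and 183 RPKM at 150 µg/d and at 468, 368 and 285 without infusion. The groups did not overlap, and Ugt1a1 fell by 0.76 ± 0.20 on the log2 scale (limma adjusted p = 0.0419). Ugt1a1 and Ugt1a9 thus changed in opposite directions at one locus, and reads on their shared exons may enter both values. Summed over the 8 Ugt1a genes, the locus was at 565 ± 112 RPKM without infusion (SD, n = 3) and 412 ± 41.1 at 150 µg/d (SD, n = 4), a difference of -0.44 ± 0.16 that did not pass (limma adjusted p = 0.156). Ugt1a6b, of the enzymes that conjugate small phenols, was at 67.0 to 71.1 RPKM without infusion and 44.7 to 61.4 at 150 µg/d (-0.36 ± 0.11, limma adjusted p = 0.0969).

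Ugt3a2 was at 151, 145, 139 and 146 RPKM at 150 µg/d and at 171, 217 and 201 without infusion. The groups did not overlap, and Ugt3a2 fell by 0.42 ± 0.10 (limma adjusted p = 0.0357). Without library 4 it fell by 0.52 (limma adjusted p = 0.0419). Its paralog Ugt3a1 differed by -0.04 in the same comparison.

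Leaving out library 4 ended the calls of Gstm2 (0.81, limma adjusted p = 0.131), Ugt1a9 (1.74, 0.178) and Ugt1a1 (-0.58, 0.218). All 4 calls were lost without library 5, 20 or 21, those of Ugt1a9, Ugt1a1 and Ugt3a2 also without library 22, and that of Ugt3a2 without library 6, with limma adjusted p between 0.0527 and 0.140. With these groups fitted alone none of the 4 was called, and without the filter on low values only Gstm2 and Ugt3a2 were. Without library 19 the number called was 7, and the difference of Ugt1a9 was 2.68 (limma adjusted p = 0.00112). No called difference changed direction.

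**Figure D4:**
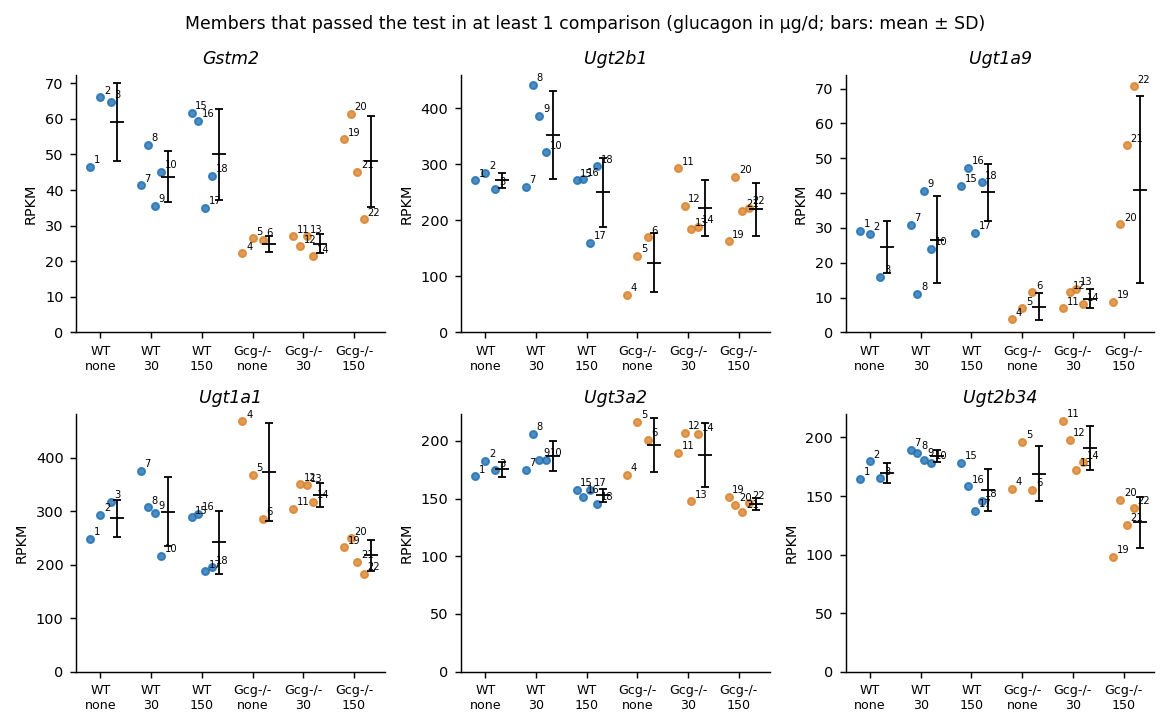
RPKM of the 6 enzymes that passed the test in at least 1 comparison, 1 dot per library with its number, by group, with mean ± SD beside the dots. Gstm2 was between 21.4 and 27.0 RPKM in all Gcg-/- libraries without infusion or at 30 µg/d and between 31.8 and 61.4 at 150 µg/d.

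The 3 enzymes next in order were Ugt2b34, Ugt2b1 and Gstk1. Ugt2b34 was at 98.1 to 147 RPKM at 150 µg/d, below the uninfused range of 155 to 196 (-0.41 ± 0.13, limma adjusted p = 0.0846). Ugt2b1 was at 163 to 277 RPKM, overlapping the uninfused range of 67.6 to 170 in 1 library (0.89 ± 0.27, limma adjusted p = 0.0891). Gstk1 was at 65.6 to 99.1 RPKM, above all uninfused Gcg-/- libraries (0.55 ± 0.17, limma adjusted p = 0.0945). Among sulfotransferases the means of Sult1a1 were 139 ± 86.4 RPKM without infusion and 206 ± 25.01 at 150 µg/d, with overlapping ranges. No sulfotransferase passed the test in any of the 11 comparisons.

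**Figure D5:**
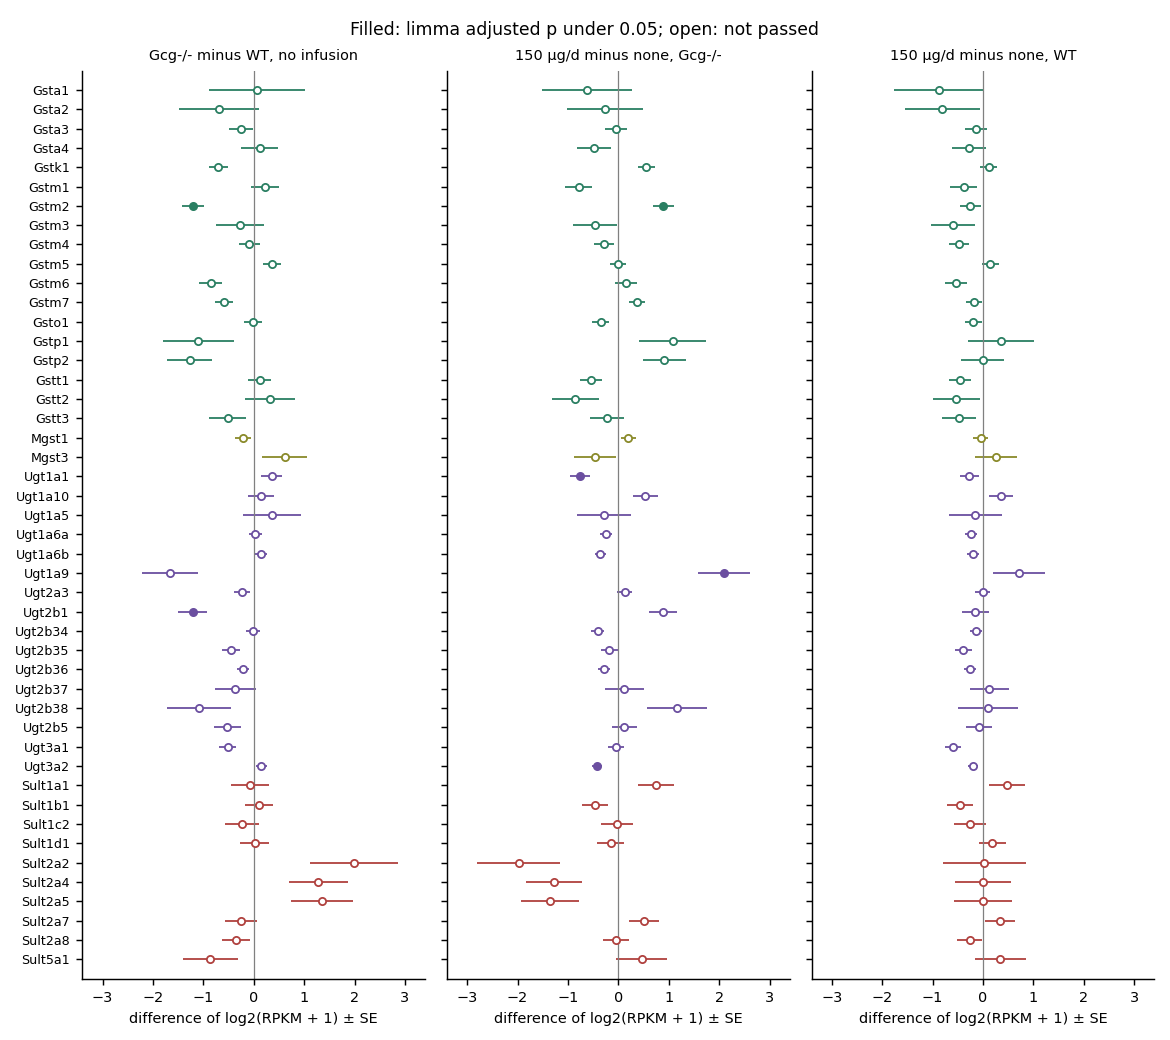
Difference of log2(RPKM + 1) with its SE for the 46 tested enzymes in 3 comparisons: Gcg-/- minus WT without infusion, 150 µg/d minus none in Gcg-/-, and 150 µg/d minus none in WT. Filled points passed a limma adjusted p of 0.05, which were 2, 4 and 0 enzymes.

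Between the doses in Gcg-/- mice (150 minus 30 µg/d), 2 of 46 enzymes were called, where 0.544% of all tested genes were called, 0.302% higher and 0.242% lower. Ugt2b34 was at 214, 198, 173 and 179 RPKM at 30 µg/d and at 98.1, 147, 125.5 and 140 at 150 µg/d. The doses did not overlap, and Ugt2b34 was lower at the higher dose by -0.59 ± 0.12 (limma adjusted p = 0.0243). Gstm2 was at 27.0, 24.2, 27.0 and 21.4 RPKM at 30 µg/d, and higher at 150 µg/d by 0.89 ± 0.19 (limma adjusted p = 0.0411). Both remained called without library 13, when 3 enzymes were called, and without libraries 4 and 13 together, when 5 were called. Without library 11, 12, 14 or 21, and with the 2 groups fitted alone, neither was called. Gstm2 was also not called without library 20, nor Ugt2b34 without library 22.

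At 30 µg/d in Gcg-/- mice against none, no enzyme was called by limma, where 0.0863% of all tested genes were called, 0.0173% higher and 0.069% lower. At an unadjusted p under 0.05 there were 11, where 10.1% of all tested genes passed. The enzymes tested include Sult2a2, Sult2a4 and Sult2a5, whose differences here also rest on library 4, through which they passed the filter. The smallest p-values belonged to Ugt2b1, Gstm1 and Ugt2b37. Ugt2b1 was at 292, 226, 184 and 188 RPKM, all above the uninfused Gcg-/- libraries (0.91 ± 0.27, limma adjusted p = 0.267). Gstm1 was at 430 to 747 RPKM against 721 to 1821 (-0.88 ± 0.27, also 0.267), and Ugt2b37 at 3.46 to 8.49 against 0.690 to 3.23 (1.20 ± 0.39, 0.279). Gstm2 differed by 0.00 ± 0.21 at this dose. Against WT at the same dose it was 24.9 ± 2.67 against 43.7 ± 7.16 RPKM (SD, n = 4 each), without overlap, and the difference of -0.78 ± 0.19 did not pass (limma adjusted p = 0.0947), nor did any other enzyme, where 0.328% of tested genes were called. At an unadjusted p under 0.05 there were 7, where 11.9% passed.

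In WT mice no enzyme was called by limma at either dose, where none of the tested genes at 30 µg/d and 0.293% at 150 µg/d were called. At an unadjusted p under 0.05 there were 2 and 5 enzymes, where 5.67% and 12.1% of all tested genes passed. At 150 µg/d the smallest p-values belonged to Ugt3a1, Gstm6 and Gstm4. Ugt3a1 was at 47.2, 55.6 and 57.2 RPKM without infusion and at 41.7, 37.7, 29.5 and 32.2 at 150 µg/d, without overlap (-0.59 ± 0.16, limma adjusted p = 0.127). Gstm6 and Gstm4 differed by -0.53 ± 0.21 and -0.47 ± 0.20 (limma adjusted p = 0.322 and 0.345). At 30 µg/d they belonged to Gstm6 (-0.52 ± 0.21), Gstm7 (-0.39 ± 0.16) and Gstm2 (-0.42 ± 0.21), each with a limma adjusted p of 0.837.

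Between genotypes at 150 µg/d no enzyme was called by limma, where 0.0259% of all tested genes were called, and 2 passed at an unadjusted p under 0.05 (Ugt2b34, -0.29 ± 0.12, and Ugt2b36, -0.24 ± 0.11), where 1.99% of all tested genes passed. Between the doses in WT no enzyme was called, where 0.00863% of all tested genes were called, and 8 passed at an unadjusted p under 0.05, where 8.12% did. The smallest p-value was that of Ugt2b36 (-0.33 ± 0.11, limma adjusted p = 0.414).

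Whether an infusion acted differently in the 2 genotypes was tested by the interaction. No enzyme was called by limma at either dose, where 0% of all tested genes were called at 150 µg/d and 0.00863% at 30 µg/d. At an unadjusted p under 0.05 there were 5 and 2 enzymes, where 10.2% and 9.02% of all tested genes passed. Gstm2 had the smallest p-value at 150 µg/d, with a difference between genotypes of 1.14 ± 0.29 (limma adjusted p = 0.185), and Ugt2b1 followed with 1.04 ± 0.39 (0.379). That Gstm2 was called in Gcg-/- and not in WT is therefore not shown to be a difference between the genotypes. With libraries weighted by their noise (limma's array weights), the 8 comparisons without a called enzyme had 1 for 150 µg/d in WT (Ugt3a1), 1 between genotypes at 30 µg/d (Gstm2) and 0 for the other 6.

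Few genes listed around the supply of the conjugation reactions passed the test. The supply lists were drawn widely and also hold genes of breakdown, such as Chac1, Ggt1 and Gusb. Of 11 tested genes of glutathione supply, none was called between the uninfused genotypes and 2 at 150 µg/d in Gcg-/-, in opposite directions. Cth, which makes cysteine from cystathionine, was at 252 ± 34.3 RPKM in uninfused WT and 85.05 ± 11.4 in uninfused Gcg-/- (SD, n = 3 each), a difference that did not pass (limma adjusted p = 0.111), and at 372 ± 189 in Gcg-/- at 150 µg/d (SD, n = 4). It rose by 1.88 ± 0.46 from the uninfused Gcg-/- group (limma adjusted p = 0.0353). Gclm, the regulatory subunit of the first enzyme of glutathione synthesis, fell by 0.38 ± 0.10 (limma adjusted p = 0.0461). Of 9 tested genes of sulfate and PAPS supply, Suox, the mitochondrial sulfite oxidase that makes sulfate, was lower in uninfused Gcg-/- than in WT (32.8 ± 1.64 against 54.2 ± 6.08 RPKM, -0.70 ± 0.17, limma adjusted p = 0.0419). None of 6 genes of UDP-glucuronate supply and none of 9 conjugate exporters was called in any comparison. The smallest p-values among those were of Slc35d1, a UDP-sugar transporter, at 150 µg/d in WT (-0.34 ± 0.08, limma adjusted p = 0.0739) and of the exporter Abcc3 at 150 µg/d in Gcg-/- (-0.95 ± 0.27, 0.0698). Without library 4, the calls of Suox (-0.67, limma adjusted p = 0.158), Cth (1.94, 0.103) and Gclm (-0.43, 0.0972) were lost.

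Among 15 regulators, Nr1i2, which encodes PXR, was higher in uninfused Gcg-/- than in WT (27.2 ± 3.64 against 18.5 ± 0.909 RPKM, SD, n = 3 each) by 0.52 ± 0.12 (limma adjusted p = 0.0314). In WT, Nr1i2 rose at 150 µg/d to 32.4 ± 2.69 RPKM (0.77 ± 0.11, limma adjusted p = 0.00625). Of 13 tested targets of CAR, PXR and AHR outside the enzymes, 1 was called without infusion and 2 at 150 µg/d in Gcg-/-, and none at either dose in WT. Gadd45b was higher in uninfused Gcg-/- than in WT by 2.55 ± 0.50 (limma adjusted p = 0.0218) and fell by 2.48 ± 0.47 at 150 µg/d in Gcg-/- (0.00985). The carboxylesterase Ces2a fell by 1.09 ± 0.25 in the latter (limma adjusted p = 0.0250). Of 12 tested NRF2 targets outside the enzymes, Ephx1, the microsomal epoxide hydrolase, and Gclm fell at 150 µg/d in Gcg-/- (Ephx1 by 0.81 ± 0.21, limma adjusted p = 0.0387), and none was called elsewhere. Gclm counts in both lists. Library 4 had the highest mean log2(RPKM + 1) over the 15 listed CAR, PXR and AHR targets, 6.14 against 4.67 to 5.601 elsewhere. Without it, the calls of Nr1i2 (0.42, limma adjusted p = 0.165) and Gadd45b (1.92, 0.103) between uninfused genotypes were lost, as were those of Gadd45b (-1.85, 0.0711), Ces2a (-0.76, 0.143) and Ephx1 (-0.63, 0.199) at 150 µg/d in Gcg-/-. Nr1i2 remained called in WT at 150 µg/d (0.77, limma adjusted p = 0.00551).

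Markers of other cells and of liver zones moved with the first comparison, and their part in the enzyme results was not tested. Of 10 endothelial markers, 5 were called higher in uninfused Gcg-/- (Lyve1, Cdh5, Pecam1, Stab2 and Tek), and their list summed to 122.8 to 131 RPKM against 93.3 to 103 in uninfused WT. At 150 µg/d in Gcg-/- it summed to 96.5 to 116 RPKM, with 3 markers called lower than without infusion. No macrophage, stellate, cholangiocyte or hepatocyte marker was called. The 10 macrophage markers nevertheless summed to 226 to 235 RPKM in uninfused Gcg-/- and 139 to 184 in uninfused WT, and the 10 stellate markers to 121 to 125 and 89.0 to 99.8. The 8 cholangiocyte markers summed to 68.9 to 186 RPKM in uninfused Gcg-/- and 24.6 to 41.7 in uninfused WT, which was mostly Spp1 (118 ± 58.1 against 19.8 ± 9.42 RPKM, SD, n = 3 each, limma adjusted p = 0.0626). The defining markers Krt19, Krt7 and Epcam had means of 0.284 to 0.580 RPKM in both groups. The 8 hepatocyte markers summed to 52223 to 79416 and 45897 to 50701 RPKM. The 8 periportal markers summed to 1674 to 2763 RPKM in uninfused Gcg-/-, 4040 to 4196 in uninfused WT and 3124 to 6403 in Gcg-/- at 150 µg/d. Of these, Gls2 and Sds were called lower in uninfused Gcg-/- than in WT, and Ass1, Pck1, Gls2 and Sds rose at 150 µg/d in Gcg-/-. Of 9 pericentral markers only Oat was called, lower in the first comparison and higher in the second. Without library 4, Gls2 and Oat remained called in the first comparison and Gls2, Sds, Pck1, Oat and the endothelial Tek in the second. Sds (limma adjusted p = 0.102) and all 5 endothelial markers (0.102 to 0.214) were lost in the first, and Ass1 (0.0792), Cdh5 (0.103) and Pecam1 (0.122) in the second. Without libraries 4 and 13 together, Ass1 was called in the second (limma adjusted p = 0.0497). In RNA of bulk liver, fewer cells of a type and less RNA per cell cannot be told apart.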

How the data were processed

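Liver polyA RNA of 22 libraries was measured with a strand-specific kit, per the labels' protocols. The authors deposited 1 table of RPKM per gene and library, with no pooling; CASAVA 1.8.2, FastQC and GRCm38 are named in the submitters' processing notes. Not given in the sources used here are aligner, counter and annotation, and with them the use of strand and the treatment of shared reads. Depth was estimated from steps of low values in 3644 genes (67.5 to 72.9% whole within 0.1 read, where chance gives 20%), too incomplete for a count test.

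The test was that of limma 3.58.1 (R 4.3.3) on log2(RPKM + 1), with a mean-variance trend and 6 groups in one fit without covariates. It had 16 residual and 3.18 prior degrees of freedom, 11 contrasts and Benjamini-Hochberg adjustment over 11590 genes. A run on simulated data used independent normal noise and no outlying library, so it does not show how the test behaves with library 4. Members and lists were chosen with earlier results of these data known. Named in full are called enzymes, the highest gene of each subfamily and, where none was called, the smallest p-values. RefSeq matched all 60 genes. Values of 1 gene are not reported here. No 2 libraries were identical.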

Additional observations from a re-analysis of the deposited data

Results flagged for a closer look

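In groups of 4 libraries, a gap test at the 95% level (Dixon) marked 13 of 175 groups of tested enzymes, where chance marks about 1 in 20. Library 13, in the Gcg-/- group at 30 µg/d, was the marked one in 6: highest for Gsta1 (12.4 RPKM), Gsta2 (56.4), Gsta4 (70.2), Gstm3 (52.9), Gsto1 (64.5) and Sult2a5 (0.0689, about 1 read). In the Gcg-/- group at 150 µg/d, library 19 was lowest for Ugt1a10 (0.417 RPKM) and Ugt2b35 (32.4), and library 20 highest for Gstm6 (59.2) and Gstm7 (33.7). In WT at 30 µg/d, Gsta1 was lowest in library 8 (1.78 RPKM) and Ugt1a5 highest in library 7 (41.7), and in WT at 150 µg/d Sult2a2 was highest in library 15 (0.0793). For Sult2a5 and Sult2a2 the other libraries of the group were at 0, so any value above 0 would have been marked. The rate of 1 in 20 does not apply to those marks, which count among the 13 and, for Sult2a5, among the 6. None of these 12 enzymes passed the test in any comparison. Groups of 3 libraries, among them that of library 4, were not tested this way.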

How the results depend on the processing

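No called difference reversed under any setting run. For Gcg-/- against WT without infusion (2 enzymes called), the count was 1 without the filter on low values, 4 with median-of-ratios scaling, 6 with libraries weighted by noise and 0 without libraries 4 and 13. It was 0 to 3 when each library was left out in turn. For 150 µg/d in Gcg-/- (4 called), it was 2 without the filter, 9 with weights, 0 with the 2 groups fitted alone, 1 without libraries 4 and 13, 2 with near-identical copies summed and 0 to 7 leaving out each library. For 150 against 30 µg/d in Gcg-/- (2 called), it was 1, 6, 0 and 5 under the first 4 of these and 0 to 3 leaving out each library. With weights, 1 was called for 150 µg/d in WT (Ugt3a1) and 1 for the genotypes at 30 µg/d (Gstm2). The remaining 6 comparisons had none called under every setting run. The cause of these shifts was not tested. Of 506 enzyme differences, 47 changed sign among 4 scalings, none of them called. Summing copies by protein identity was not run, and sharing of transcript windows was used in its place; that, a rescaling to one sum, fits without library 4 or 13 for other groups, and the values of listed genes, extremes and group means without them were chosen after seeing the data. No paired analysis was possible because the running numbers are unique and the groups share none. The number of libraries and the read depth limit the genes under 0.5 RPKM, which were not tested.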
